A study of Mus musculus with 20 samples.

Results

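Sall1, Irf8, Spi1, Mef2c, Mef2a, Runx1, Cebpa, Cebpb and Bhlhe41, 9 transcription factors used in the literature to define the microglial and myeloid lineage, were followed in sorted spinal cord microglia before and after injury. The genes were set by a list of symbols, and all 9 of 9 were found among the 16810 genes of the table. Of these, 8 were listed under the current symbol, and Spi1, which encodes PU.1, was listed under its older name Sfpi1. Gene expression was measured by RNA sequencing in 20 samples of cells with high enhanced green fluorescent protein (eGFP), taken by flow cytometry from a 1 cm thoracic segment of the spinal cord. All groups carried the CX3CR1+/eGFP genotype, in which 1 copy of the fractalkine receptor gene is replaced by the reporter, so every mouse, controls included, had a single working copy of that gene. The non-injured group (NI) held 3 samples. The lesioned mice had a lateral hemisection (HS) or a full transection (FT) at the ninth thoracic level at 12 weeks of age, and were sampled 72 h, 1 week or 2 weeks later. There were 3 samples in each lesion group other than HS 1w, which had 2. The mice were male and on a C57BL/6 background, and their number in the methods exceeded the number of libraries, so a sample is best read as a pool of mice. The labels do not say that the samples of a group came from separate animals, and p-values measure the spread between these samples. eGFP in this line also marks monocytes, so the gate in the injured cord may hold infiltrating macrophages beside microglia.

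Microglia arise from yolk sac progenitors, and their identity is held by a small set of factors that act together on enhancers. PU.1 and IRF8 bind as partners, and PU.1 is required for the cells to form. RUNX1 acts in the embryonic progenitors and in microglial quiescence. C/EBP factors and MEF2 factors share many of the bound sites, and SALL1 separates microglia from other macrophages of the body. BHLHE41 is an E-box repressor that is also found in other tissue macrophages. Injury and removal from the tissue both alter the expression of microglial identity genes, which makes the levels of these factors a common reference in studies of activated microglia.

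Values are normalised read counts in CPM, which the authors describe as scaled by library size. The samples held 3.87 to 34.1 M reads assigned to genes, and every value could be turned back into whole reads. On this scale the columns did not share a total: NI columns summed to 777430 to 830480 CPM and injured columns to 878070 to 1202200 CPM. The lowest read count behind any member value was 38, for Sfpi1 in FT 72h replicate 2, so all 9 members passed every filter on low values. Replicates had median correlations of 0.951 to 0.983 across genes within their own group in 17 of 20 samples. The 3 FT 1w samples were lower, and FT 1w replicate 1, at 0.921, stood furthest apart. Microglial markers were abundant in all groups, with a summed level of 14 markers of 30969 to 42268.5 CPM in NI and 27170.5 to 49630.2 CPM after injury. A gene was called when the Benjamini-Hochberg adjusted p of limma over all genes was under 0.05 and the change was at least 2-fold.

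Bhlhe41 rose at 72 h after HS, and no other member was called in any of 15 comparisons. Sall1 was lower than in NI in every injured sample, by less than the 2-fold limit. Cebpa, Runx1, Mef2a and Sfpi1 were lower at 72 h with adjusted p just above the threshold or further from it, and no difference from NI was detectable for Mef2c, Irf8 and Cebpb within their spread. Against NI, 1 of 9 members was called at HS 72h, where 13.4% of all genes were called. None was called at HS 1w (2.18% of all genes), HS 2w (3.23%), FT 72h (12.2%), FT 1w (4.05%) or FT 2w (4.88%). At an unadjusted p under 0.05, the members numbered 6 at HS 72h, 2 at HS 1w, 1 at HS 2w, 3 at FT 72h, 1 at FT 1w and 2 at FT 2w, beside 6608, 2147, 2708, 6156, 3060 and 3211 of the 16810 genes. On the recovered reads, DESeq2 and both tests of edgeR (quasi-likelihood, likelihood ratio) called the same number of members in each of these comparisons. All 6 comparisons share the NI samples. The median log2 fold change of the 9 members was -0.50 at HS 72h and -0.28 at FT 72h, beside -0.11 and -0.09 over all genes. In bulk samples, a smaller share of cells that express a gene and less RNA per cell cannot be told apart.

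**Figure D1:**
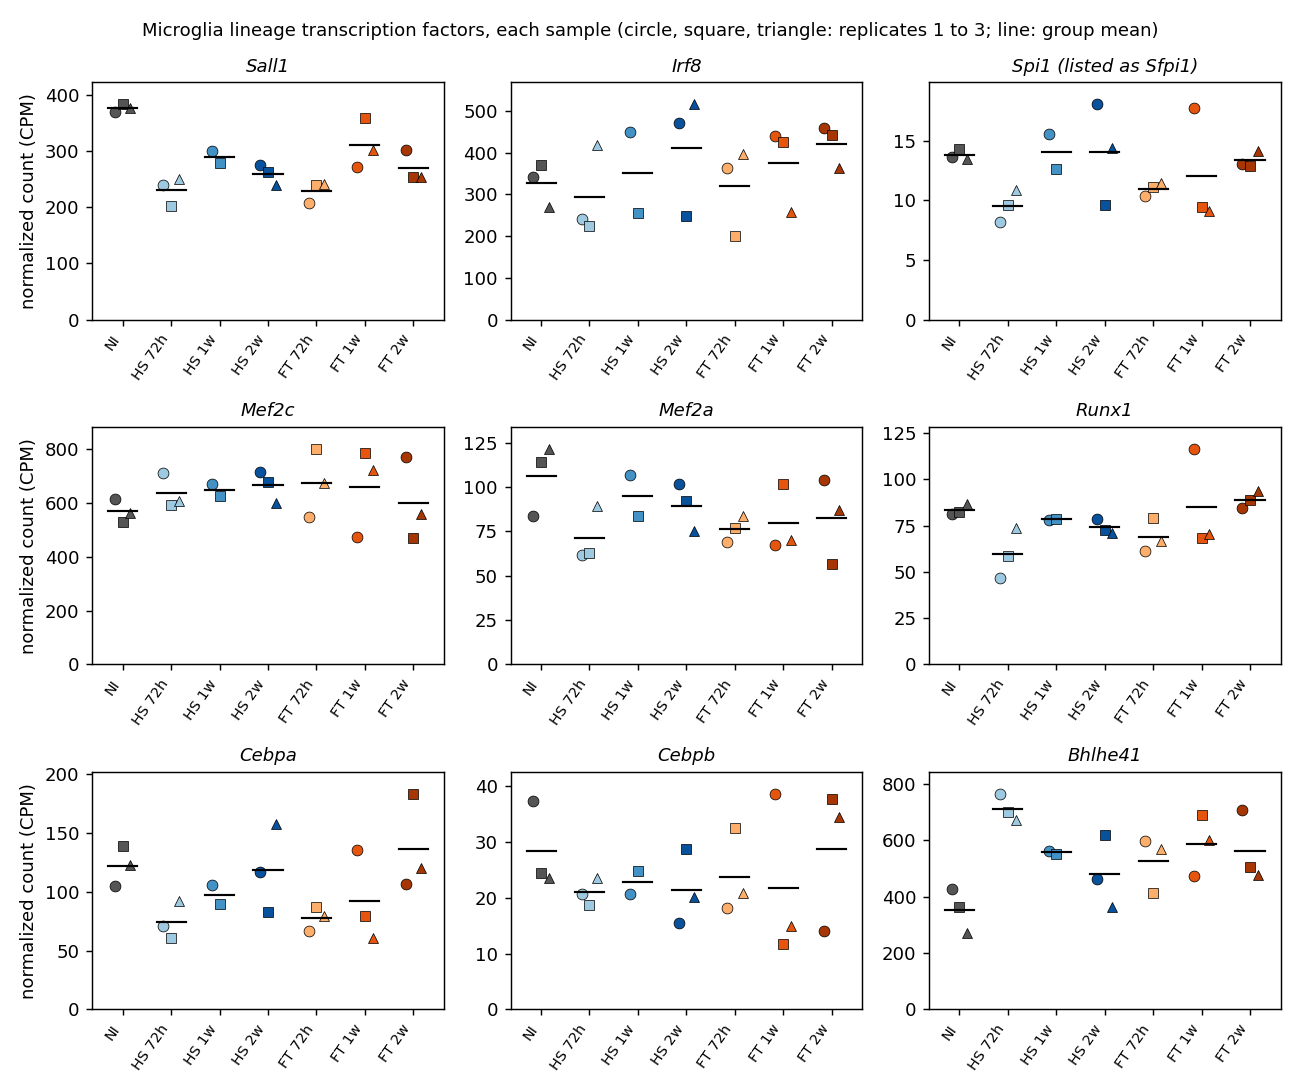
Normalised read count (CPM, linear axis from 0) of each member in each of the 20 samples by group, with replicates as separate symbols and the group mean as a line. In the Sall1 panel all 17 injured samples lie under the 3 NI samples, and in the Bhlhe41 panel 15 of 17 lie above them.

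Promoter windows are shown for Sall1 and Bhlhe41, the members with the smallest adjusted p against NI. They are RefSeq sequences of GRCm38.p6, 5′ to 3′ on the minus strand on which both genes lie, and capitals mark a motif match. Sall1 lies at chr8:89027235-89044162 in GENCODE vM21. The first window (chr8:89044163-89044412) ends at the annotated gene start and holds none of the 6 motifs searched. A window before a start 650 bases further in held no match and is not shown. The other Sall1 window shown (chr8:89042863-89043112) precedes a start 1300 bases further in, touches no annotated exon, and was chosen because it holds a PU.1 match, in capitals. Bhlhe41 lies at chr6:145858243-145865558, and the 112 bases before the gene (chr6:145865559-145865670) hold the E-box that BHLHE41 itself recognises, in capitals.
Sall1 gene start: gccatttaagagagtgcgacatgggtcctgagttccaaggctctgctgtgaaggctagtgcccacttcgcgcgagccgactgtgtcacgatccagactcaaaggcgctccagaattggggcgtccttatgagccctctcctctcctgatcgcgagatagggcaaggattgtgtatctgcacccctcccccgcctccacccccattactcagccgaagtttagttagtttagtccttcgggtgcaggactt
Sall1 inner start: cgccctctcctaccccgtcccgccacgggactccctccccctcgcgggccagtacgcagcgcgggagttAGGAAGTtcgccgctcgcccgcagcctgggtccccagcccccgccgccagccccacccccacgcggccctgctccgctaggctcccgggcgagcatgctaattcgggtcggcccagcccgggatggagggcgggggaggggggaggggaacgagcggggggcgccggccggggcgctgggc
Bhlhe41 gene start: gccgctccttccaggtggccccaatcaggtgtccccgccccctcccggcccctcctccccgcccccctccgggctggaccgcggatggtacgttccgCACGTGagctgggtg
The motifs were searched on both strands in the 250 bases before each RefSeq start, as AGGAAGT for PU.1, GAAA, NN and GAAA in a row for IRF, TTGCNNAA for C/EBP, TGTGGT for RUNX, CTA, NNNN and TAG in a row for MEF2 and CACGTG for BHLHE41, and no motif contains another. Over all 32851 windows they were found in 7.69%, 2.98%, 9.56%, 14.0%, 3.2% and 6.02%. Spi1 had no window. The other 8 members had 14 windows, and the only further match was CACGTG in a window of Runx1. A match is a description of the letters and says nothing on binding in these cells.

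Sall1 encodes a zinc-finger repressor that in the adult central nervous system is largely restricted to microglia. Its normalised counts in NI were 369, 383 and 375 CPM. They were 239.5, 201 and 249 CPM at HS 72h, 300.4 and 279 CPM at HS 1w, and 275, 262 and 239.7 CPM at HS 2w. After FT they were 208, 238 and 241 CPM at 72 h, 272, 358 and 301 CPM at 1 week, and 302, 254 and 253 CPM at 2 weeks. All 17 injured samples were below all NI samples, which was the case for 386 genes, or 2.3% of the table. The lowest group means were those of HS 72h and FT 72h. Taken from means of the log2 values, the injured groups were at 0.608 to 0.820 times NI. The log2 fold change from NI was -0.71 ± 0.15 (SE) at HS 72h (limma adjusted p = 0.00161) and -0.72 ± 0.15 at FT 72h (adjusted p = 0.00169). It was -0.54 at HS 2w (adjusted p = 0.0461), -0.48 at FT 2w (adjusted p = 0.0586), -0.38 at HS 1w (adjusted p = 0.354) and -0.29 at FT 1w (adjusted p = 0.352). Sall1 thus passed the adjusted p in 3 comparisons, each short of a 2-fold change. By adjusted p alone, 2 of 9 members passed at HS 72h (27.3% of all genes), 1 at HS 2w (4.99%) and 1 at FT 72h (24.2%), with none at HS 1w (2.68%), FT 1w (7.03%) or FT 2w (8.17%). Both 72 h differences kept an adjusted p under 0.05 in all 17 alternatives. The HS 2w difference lost it in each of the 6 fits without 1 sample, with adjusted p up to 0.166.

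Sall1 was also among the steadiest genes of its level. The SD of its log2 level within groups was 0.13, and 2.32% of the 388 genes of like abundance had a smaller one. Other quantities also differed from NI at 72 h. The summed level of 11 monocyte and macrophage markers was 60.9 to 68.6 CPM in NI, 620 to 785 CPM at HS 72h and 578 to 1232 CPM at FT 72h. Of these markers 5 rose at HS 72h and 8 at FT 72h, and none fell. All 11 were above 0 in some sample of each group. Fn1, which encodes fibronectin and can also be made by activated microglia, gave most of the sum, rising from 11.4 to 13.9 CPM in NI to a range of 438 to 684 CPM at HS 72h. Ccr2 and Ly6c2, defining markers of inflammatory monocytes, are named here after their values were seen. In a parallel experiment of the paper, cells with high eGFP were negative for LY6C at all times after HS. By the surface protein CD45, eGFP-positive cells at 72 h fell into a low and a high population. The paper reads these as most likely ramified microglia and activated macrophages, and states that the selected cells held both. At later times the populations could not be separated. The paper did not exclude a low level of infiltrating macrophages among the selected cells. Ccr2 was at 14.6 to 20.1 CPM in NI, 34.6 to 100.2 CPM at HS 72h and 57.0 to 166 CPM at FT 72h. Ly6c2 was at 0.772 to 1.63 CPM in NI, 0.958 to 2.26 CPM at HS 72h and 3.87 to 6.13 CPM at FT 72h. The list summed to 440 to 513 CPM at HS 1w and 228 to 364 CPM at FT 1w. At 2 weeks it summed to 286 to 414 CPM after HS and 296 to 492 CPM after FT. Mean Sall1 was 289 CPM at HS 1w and 259 CPM at HS 2w, and 310 CPM at FT 1w and 270 CPM at FT 2w. The part of monocytes and macrophages in the Sall1 difference was not tested.

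Of the 3 paralogs of Sall1 in the table, Sall3 was lower at 72 h as well. Sall3 was at 125 to 145 CPM in NI, 65.0 to 113 CPM at HS 72h and 72.1 to 94.5 CPM at FT 72h. Its log2 fold change was -0.66 ± 0.21 at HS 72h (limma adjusted p = 0.0214) and -0.65 ± 0.21 at FT 72h (adjusted p = 0.0245), under the fold limit like that of Sall1. Sall2 was scarcer, at 13.4 to 17.6 CPM in NI, with -0.68 at HS 72h (adjusted p = 0.0281) and -0.50 at FT 72h (adjusted p = 0.109), and Sall4 was at 0.536 to 1.03 CPM in NI. None of the 3 was called against NI.

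Bhlhe41, also known as Dec2, encodes a basic helix-loop-helix repressor of the circadian system. Its normalised counts in NI were 426, 363 and 273 CPM. At HS 72h they were 766, 701 and 672 CPM, all far above NI. They were 563 and 553 CPM at HS 1w, and 462, 620.4 and 364 CPM at HS 2w. After FT they were 599, 413 and 569.98 CPM at 72 h, 475, 691 and 602 CPM at 1 week, and 707, 507 and 477 CPM at 2 weeks. The samples of HS 72h, HS 1w, FT 1w and FT 2w did not overlap with NI, and 1 sample each of HS 2w and FT 72h did. The log2 fold change was 1.03 ± 0.23 (SE) at HS 72h, with a limma adjusted p of 0.00184 and higher values in 3 of 3 samples. In the other comparisons it was 0.68 at HS 1w (adjusted p = 0.204), 0.43 at HS 2w (adjusted p = 0.364), 0.58 at FT 72h (adjusted p = 0.0680), 0.74 at FT 1w (adjusted p = 0.0519) and 0.67 at FT 2w (adjusted p = 0.0778). The call at HS 72h lies near the fold limit. It was lost without NI replicate 3 (log2 fold change 0.85) or HS 72h replicate 1 (0.98), with the adjusted p at 0.0195 or under, and with scalings that equalise the column totals (0.52, adjusted p = 0.0509) or the distributions (0.45, adjusted p = 0.138). Its exons share 597 bases with the transcript Gm43909 on the other strand, and the strand of the libraries was not stated.

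Bhlhe40, the closest paralog of Bhlhe41 and a repressor at the same E-box, rose in all 6 comparisons. It was at 6.52 to 12.04 CPM in NI, 41.8 to 54.3 CPM at HS 72h, 56.9 to 76.7 CPM at HS 1w and 88.3 to 103 CPM at HS 2w. After FT it was at 43.2 to 94.98 CPM at 72 h, 33.4 to 63.4 CPM at 1 week and 83.0 to 102 CPM at 2 weeks. No injured sample overlapped with NI. Its log2 fold change was lowest at HS 72h, 2.37 ± 0.28 (limma adjusted p = 2.19e-06), and highest at HS 2w, 3.32 ± 0.28 (adjusted p = 5.83e-08). Bhlhe41 in contrast had its largest difference from NI at HS 72h and its smallest at HS 2w. The difference between HS 2w and HS 72h in Bhlhe41 was -0.60 (adjusted p = 0.0992) and was not called.

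**Figure D2:**
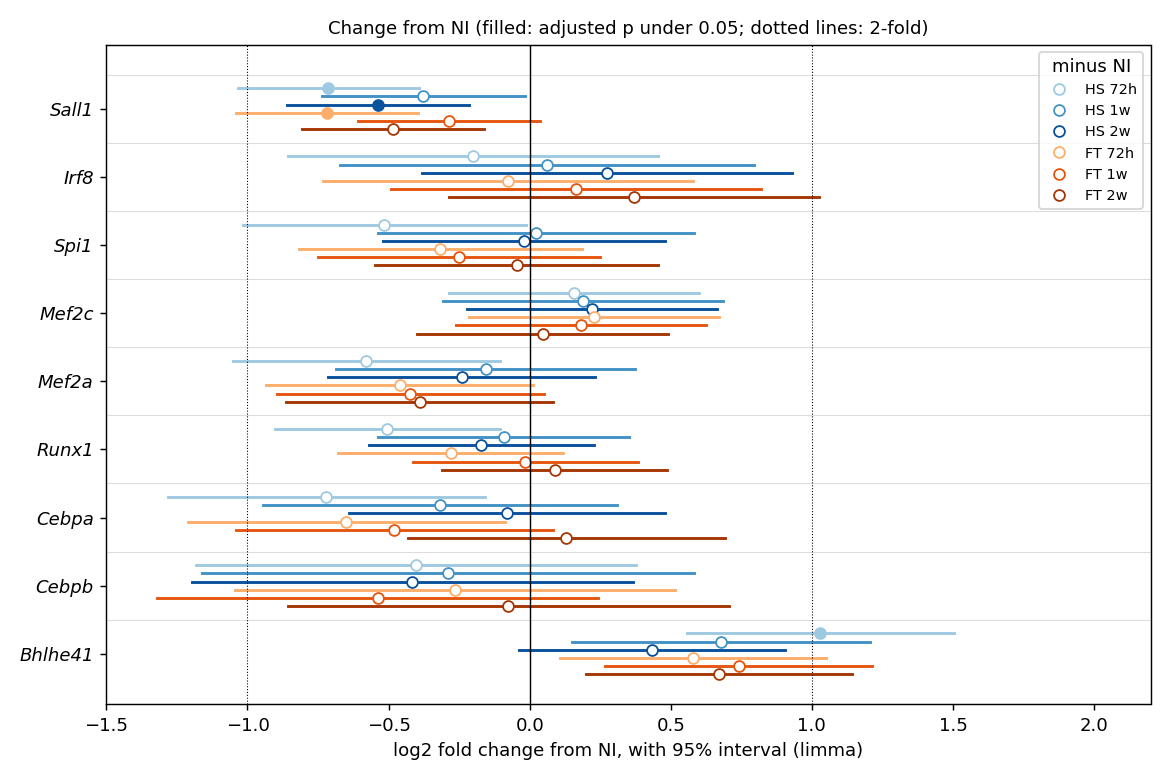
Log2 fold change of each member from NI with its 95% interval in the 6 comparisons, coloured by group, with filled points at an adjusted p under 0.05 and dotted lines at 2-fold. The filled points are Sall1 at HS 72h, HS 2w and FT 72h and Bhlhe41 at HS 72h, and only the Bhlhe41 point reaches the dotted line.

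Spi1 and Irf8 encode partners at composite ETS and IRF sites. Sfpi1, the listed name of Spi1, was at 13.6, 14.3 and 13.4 CPM in NI, 8.19, 9.61 and 10.9 CPM at HS 72h, and 10.4, 11.1 and 11.5 CPM at FT 72h. All 6 samples of 72 h lay under the NI samples. The log2 fold change was -0.51 ± 0.24 at HS 72h (limma adjusted p = 0.117) and -0.32 ± 0.24 at FT 72h (adjusted p = 0.358), so the difference was not called. At 1 and 2 weeks the samples ran from 9.07 to 18.1 CPM on either side of NI, and the log2 fold change lay between -0.25 at FT 1w and 0.02 at HS 1w.

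Irf8 was at 343, 371 and 269 CPM in NI, with 241, 224 and 419 CPM at HS 72h and 364, 201 and 398 CPM at FT 72h. The samples of each group spread over much of the same range. Its levels ran from 249 to 517 CPM at HS 1w and HS 2w and from 257 to 459.8 CPM at FT 1w and FT 2w. Irf8 differed from NI by -0.20 (HS 72h) to 0.37 (FT 2w) on the log2 scale, with adjusted p from 0.592 to 0.979. The within-group SD of 0.45 on the log2 scale was larger than that of 88.6% of 280 genes of like level. With that spread, the 95% interval at HS 72h ran from -0.86 to 0.45 and included differences of either sign.

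Of the other IRF genes, Irf7, a factor of the interferon response, rose in all 6 comparisons. It was at 14.6 to 20.8 CPM in NI, 47.5 to 68.9 CPM at HS 72h and 69.5 to 108 CPM at FT 72h, and reached 106 to 201 CPM at FT 2w. Its change ran on the log2 scale from 1.63 ± 0.29 at HS 72h (limma adjusted p = 0.000226) to 2.90 ± 0.29 at FT 2w (adjusted p = 4.15e-07). Irf4, an IRF that like IRF8 pairs with PU.1, fell at FT 72h by 1.04 on the log2 scale (limma adjusted p = 0.00284). It was at 3.21 to 4.72 CPM there, against 6.71 to 10.04 CPM in NI. Per kb of exon its mean was 0.79 CPM at FT 72h, 0.83 CPM at HS 72h and 1.75 CPM in NI. Irf4 was not called in the other comparisons with NI. Its highest injured sample (HS 2w, 1.34 CPM per kb) still lay under its lowest NI sample (1.37 CPM per kb). Irf1, Irf2, Irf3, Irf5 and Irf9 were not called. In NI, per kb of exon, Irf8 was at 46.5 CPM and Sfpi1 at 5.12 CPM.

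Runx1 and the C/EBP genes act at many of the sites that PU.1 binds. Runx1 was at 81.5, 82.4 and 86.7 CPM in NI and 46.8, 58.6 and 73.6 CPM at HS 72h, which came to -0.50 ± 0.19 on the log2 scale (limma adjusted p = 0.0546). At FT 72h it was at 61.3, 79.2 and 66.7 CPM (-0.28, adjusted p = 0.303). Both groups lay under NI without overlap. HS 1w and HS 2w also lay under NI, at 78.2 to 78.4 CPM and 71.3 to 78.6 CPM. FT 2w was at 84.6 to 93.5 CPM, and FT 1w held 1 sample at 116 CPM and 2 at 68.6 and 70.5 CPM. Runx2 and Runx3 were at 3.99 to 5.56 CPM and 1.97 to 2.32 CPM in NI, and neither was called against NI. Runx2 was called as higher at HS 1w than at HS 72h.

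Cebpa, a pioneer of myeloid differentiation, was at 105, 138 and 123 CPM in NI. It was at 70.7, 60.8 and 91.8 CPM at HS 72h and 66.4, 87.0 and 79.1 CPM at FT 72h, and neither group overlapped with NI. The log2 fold change was -0.72 ± 0.27 at HS 72h (limma adjusted p = 0.0519) and -0.65 ± 0.27 at FT 72h (adjusted p = 0.0846). The SE was wider than that of Sall1. At 2 weeks the samples lay at 82.3 to 157 CPM after HS and 106 to 183 CPM after FT, on either side of NI. The difference between FT 2w and FT 72h was 0.78 ± 0.27 on the log2 scale and did not pass (adjusted p = 0.0992).

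Cebpb, which is induced by inflammatory signals, was at 37.3, 24.5 and 23.5 CPM in NI. It was at 18.7 to 23.6 CPM at HS 72h and 18.1 to 32.4 CPM at FT 72h, and ran from 11.8 to 38.6 CPM within FT 1w alone. Its log2 fold change lay between -0.54 at FT 1w and -0.08 at FT 2w, with adjusted p from 0.440 to 0.947. Its within-group SD of 0.54 was larger than that of 94.9% of 2374 genes of like level. Its exon shares 312 bases with Tmem189 on the other strand. Cebpd, a paralog of the acute phase, fell at HS 72h, HS 2w, FT 72h and FT 1w, with log2 fold changes of -1.31, -1.19, -1.42 and -1.43. Its level was 15.3 to 19.1 CPM in NI, while the injured samples lay at 3.39 to 12.01 CPM. Ddit3, the stress-induced C/EBP relative CHOP, fell at HS 72h (-1.58) and FT 72h (-1.67).

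Mef2c and Mef2a encode MADS-box factors, and MEF2C restrains the inflammatory response of microglia. Mef2c was at 615, 530.5 and 563 CPM in NI and had the highest CPM of the members there. It was at 711, 592 and 606 CPM at HS 72h and 547, 801 and 675 CPM at FT 72h. The log2 fold change lay between 0.05 at FT 2w and 0.23 at FT 72h, with adjusted p from 0.462 to 0.943. Mef2c was thus the only member besides Bhlhe41 above NI in all 6 comparisons on the deposited scale, and its sign turned in all 6 when columns were scaled to 1 total or quantile normalised. Mef2a was at 83.9, 114 and 122 CPM in NI, 61.8, 62.9 and 89.2 CPM at HS 72h, and 68.9, 77.1 and 83.5 CPM at FT 72h. Its log2 fold change was -0.58 ± 0.23 at HS 72h (limma adjusted p = 0.0632) and -0.46 ± 0.23 at FT 72h (adjusted p = 0.147). No injured sample of Mef2a exceeded the highest NI sample, and 10 of 17 lay under the lowest. Mef2d, at 8.58 to 10.7 CPM in NI, was not called.

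**Figure D3:**
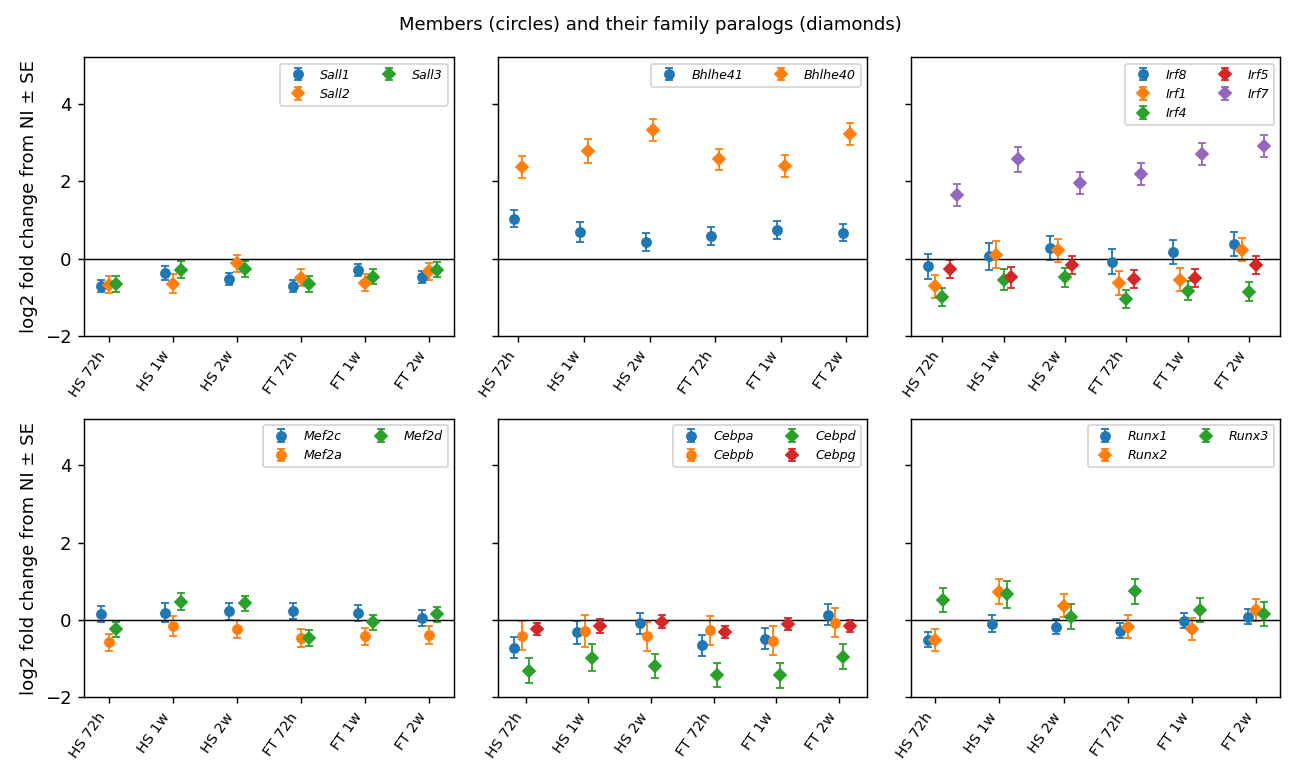
Log2 fold change from NI with its SE for 6 families, with members as circles and paralogs as diamonds, over the 6 injured groups. Bhlhe40 and Irf7 lie between 1.63 and 3.32 in every group, while the members of their families lie between -0.20 and 1.03, and Cebpd lies between -1.43 and -0.95, below the other C/EBP genes drawn.

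The samples did not overlap with NI in 5 of 9 members at HS 72h (49% of all genes), 4 at HS 1w (37.3%), 2 at HS 2w (24.8%), 5 at FT 72h (44.9%), 2 at FT 1w (21.5%) and 2 at FT 2w (30.7%). The members' shares were close to those of all genes. Sall1 was in all 6 of these sets, Runx1 in 4 and Bhlhe41 in 4. In the order of the 7 group means, neighbouring groups overlapped in every member with 2 exceptions. NI and FT 1w were apart for Sall1 and NI and HS 1w were apart for Runx1, and neither pair passed the limma test (adjusted p = 0.352 and 0.931). NI had the highest mean in Sall1 and Mef2a and the lowest in Mef2c and Bhlhe41. HS 72h had the lowest mean in Irf8, Sfpi1, Mef2a, Runx1, Cebpa and Cebpb.

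Lesion severity was compared at each time. No member was called between FT and HS at 72 h (0% of all genes), 1 week (0%) or 2 weeks (0%), and none had an unadjusted p under 0.05. Over all genes, 505, 724 and 438 had an unadjusted p under 0.05, and DESeq2 called 0, 7 and 1. The samples of FT and HS did not overlap for 1 member at 72 h (7.54% of all genes), none at 1 week (15%) and 1 at 2 weeks (8.15%). These were Bhlhe41, lower at FT 72h than at HS 72h by 0.45 on the log2 scale with an interval of -0.92 to 0.02, and Runx1, higher at FT 2w than at HS 2w by 0.26 with an interval of -0.14 to 0.66. For Sall1 the difference between FT and HS was -0.00 at 72 h, with an interval of -0.33 to 0.32. The widest intervals were those of Cebpb, from -1.12 to 0.62 at 1 week and from -0.44 to 1.12 at 2 weeks.

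Time after lesion was compared within each severity. NI does not enter these differences, but the spread behind each test was estimated over all 7 groups, NI included. No member was called between HS 1w and HS 72h (6.03% of all genes), HS 2w and HS 72h (4.74%), HS 2w and HS 1w (0.0119%), FT 1w and FT 72h (3.44%), FT 2w and FT 72h (3.81%) or FT 2w and FT 1w (0.0714%). At an unadjusted p under 0.05 there were 0, 2, 0, 1, 1 and 1 members, beside 4506, 4310, 789, 3345, 3286 and 773 of all genes, and edgeR and DESeq2 called none. The 2 at HS 2w against HS 72h were Cebpa, higher by 0.64, and Bhlhe41, lower by 0.60. Sall1 was higher at FT 1w than at FT 72h by 0.43 (limma adjusted p = 0.110).

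Per kb of annotated exon, which allows levels to be set side by side between genes, the members spanned a wide range in NI. Sall1 was highest at 71.4 ± 1.35 CPM per kb (SD, n = 3), ahead of Bhlhe41 at 52.7 ± 11.5, Irf8 at 46.5 ± 7.44, Cebpa at 46.3 ± 6.41 and Mef2c at 36.2 ± 2.70 CPM per kb. Cebpb was at 18.9 ± 5.12 CPM per kb. Mef2a at 7.25 ± 1.36, Runx1 at 6.94 ± 0.234 and Sfpi1 at 5.12 ± 0.165 CPM per kb were the lowest. At HS 72h Bhlhe41 stood at 106 ± 7.16 CPM per kb and Sall1 at 43.7 ± 4.78 CPM per kb, so their order was exchanged. The lengths are unions of all exons in GENCODE vM21, and the order depends on them. Per kb of the longest annotated transcript, a choice made after seeing the data, Irf8 was at 94.5 ± 15.1 and Mef2c at 90.7 ± 6.77 CPM per kb in NI, both above Sall1 at 71.4 ± 1.35 CPM per kb.

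Samples departed from their group means in a shared way. With group means removed, Sall1 correlated with Mef2c (Pearson r = 0.78 over 20 samples) and Mef2a (0.74), and Sfpi1 with Runx1 (0.74) and Cebpa (0.69), while Cebpa and Bhlhe41 were opposed (-0.67). The points share libraries, and 2 other properties of the libraries, computed after seeing the data, moved with them. A score of GC-rich against GC-poor genes correlated with the deviations of Irf8 (0.78), Sfpi1 (0.72), Cebpa (0.67) and Mef2c (-0.60). For the other members r lay between -0.33 (Bhlhe41) and 0.26 (Runx1). These values did not follow the GC content of the members' own transcripts throughout. Cebpb, the richest at 67.2%, had 0.0046, and Sall1, at 51.6% beside 51.7% for Irf8, had -0.31. The mean deviation of 10 immediate-early and heat-shock genes, which respond to tissue handling as well as to injury, correlated with Mef2c (-0.83), Cebpb (0.78), Cebpa (0.66) and Sall1 (-0.59). It also correlated with Bhlhe41 (-0.56) and Runx1 (0.55), and for the remaining members r lay between -0.39 (Mef2a) and 0.36 (Sfpi1). FT 1w replicate 1 held the highest GC score (0.36) and the highest immediate-early deviation (1.87) on the log2 scale. It was also the FT 1w sample with the highest Cebpb, Cebpa, Runx1 and Sfpi1 and the lowest Mef2c and Sall1. Without it the log2 fold change at FT 1w went from -0.54 to -1.04 for Cebpb (limma adjusted p = 0.0506), from -0.48 to -0.80 for Cebpa (adjusted p = 0.0431), from -0.25 to -0.55 for Sfpi1 (adjusted p = 0.0993) and from 0.74 to 0.89 for Bhlhe41 (adjusted p = 0.0155), and none of them was called. The part of these properties in the members' levels was not tested.

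**Figure D4:**
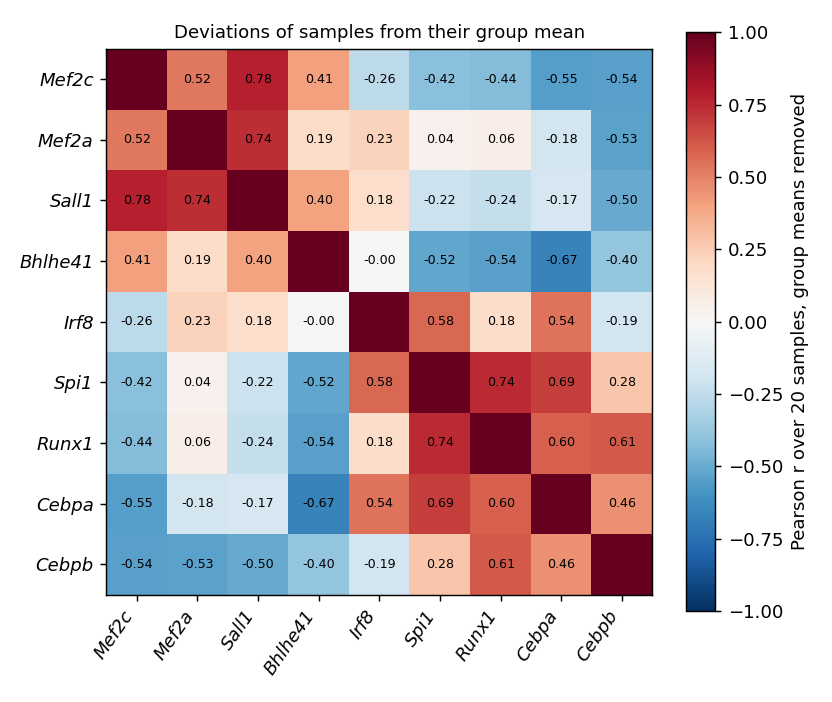
Pearson correlation between members over the 20 samples after removal of group means, as a colour from -1 to 1 with the value in each cell. Sall1, Mef2c and Mef2a form a block with r of 0.52 to 0.78, and Sfpi1 (Spi1), Runx1 and Cebpa form another with r of 0.60 to 0.74.

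The genes most like each member across the 20 samples were sought among 9870 genes with a mean of at least 5 CPM. For Sall1 they were Srgap2 (r = 0.92), Nrip1 (0.92) and Mtx3 (0.91), for Bhlhe41 Ipo7 (0.88), Prune2 (0.87) and Slc39a1 (0.86), and for Irf8 Grina (0.90), Plod3 (0.89) and Slc3a2 (0.89). For Sfpi1 they were Hdac5 (0.88), Chd7 (0.87) and Brpf3 (0.85), for Runx1 Fbxw2 (0.90), Slc30a1 (0.90) and Pou2f2 (0.89), and for Cebpa Rfx1 (0.89), Gm4980 (0.89) and Zfp703 (0.88). For Cebpb they were Zfp622 (0.85), Slco1c1 (0.83) and Ly6c1 (0.82), for Mef2c Phf20 (0.85), Atad1 (0.84) and Mbtps2 (0.83), and for Mef2a Mll3 (0.90), Atm (0.88) and Dock4 (0.88). No member was among the 3 genes most like another member.

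Genes around the members were read from lists. Of 21 family paralogs in the table, 2 rose and 2 fell at HS 72h and 2 rose and 3 fell at FT 72h. Of 14 proteins that bind or regulate the members, such as the RUNX1 partner Cbfb and the MEF2 repressors of histone deacetylase class, none was called against NI at any time. Of 29 other transcription factors of myeloid cells, 1 rose and 2 fell at HS 72h. These included Tfec, of the microphthalmia family, which rose by 2.05 ± 0.47 on the log2 scale (limma adjusted p = 0.00237), and Klf4, which fell by 2.49 ± 0.84 (adjusted p = 0.0310). Klf4 is itself an early response gene, and ranged from 20.6 to 313 CPM within FT 2w alone.

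Textbook targets of the members were also read. Of 12 genes known to be driven by PU.1 or IRF8, 1 rose at HS 72h and at FT 72h and none fell, and Cybb, the catalytic subunit of the phagocyte oxidase, was called in all 6 comparisons. Cybb was at 51.7 to 55.5 CPM in NI, 90.8 to 178 CPM at HS 72h and 246 to 348 CPM at FT 2w. Of 8 genes driven by C/EBP factors, 4 rose at HS 72h, and at FT 72h 4 rose and 1 fell. The largest rise was that of Arg1, the arginase of alternatively activated macrophages, at 1.29 to 1.63 CPM in NI against 20.1 to 40.5 CPM at HS 72h (log2 fold change 4.06 ± 0.61, limma adjusted p = 4.06e-05). Several of these targets are also expressed by monocyte-derived macrophages, and of 11 markers of monocytes and macrophages 5 rose at HS 72h and 8 at FT 72h. In each group of 1 and 2 weeks, 2 of the 8 C/EBP targets and 2 of the 11 markers were called as higher than NI. The part of such cells in the target levels was not tested. Of 14 homeostatic microglial genes, 1 rose and 1 fell at HS 72h: Fcrls rose by 1.51 and Tmem119 fell by 1.22. At FT 72h 1 rose and 2 fell. Later, 1 fell at HS 1w and 1 at HS 2w, 1 rose and 1 fell at FT 1w, and 2 fell at FT 2w.

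Markers of other cells and of cell states were read at 72 h and, where they moved later, at 2 weeks. All 9 proliferation genes rose at both 72 h groups. Their summed level was 119 to 129 CPM in NI, 902 to 1589 CPM at HS 72h and 886 to 1069.8 CPM at FT 72h. At HS 2w 3 of the 9 were still called as higher than in NI, and at FT 2w 1 was. The part of these genes in the 72 h differences was not tested. Of 7 markers of border macrophages 1 rose at HS 72h, and at FT 72h 1 rose and 2 fell. At 2 weeks 6 of the 7 fell after HS, and 6 fell and 1 rose after FT. Of 9 neutrophil markers 2 fell at HS 72h and 1 at FT 72h. Of 8 lymphocyte markers none was called at HS 72h and 1 rose at FT 72h. No marker of endothelium, oligodendrocytes or erythroid cells was called at 72 h. At 2 weeks, of 7 endothelial markers 1 rose (Flt1) and 1 fell (Pecam1), both after HS and after FT. Of 7 astrocyte markers 1 rose and 2 fell at HS 72h, and 2 rose and 1 fell at FT 72h. At 2 weeks 4 of them fell after HS and after FT. Of 6 neuronal markers 2 fell at HS 72h, FT 72h and FT 2w, and none was called at HS 2w. Of the 10 immediate-early and heat-shock genes 3 fell at HS 72h and at FT 72h, namely Jun, Hspa1a and Hspa1b.

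The size and the calls of the 72 h differences depended on how the columns were scaled. With 1 total per column or quantile normalisation, Mef2c was the only member whose sign turned at 72 h. When each column was scaled to 1 total, the median of all genes at HS 72h moved from -0.11 to -0.52, and 5 members were called as lower: Sall1, Cebpa, Mef2a, Runx1 and Sfpi1, at -1.22, -1.23, -1.08, -1.01 and -1.004. On that scale 22.7% of all genes were called at HS 72h and 20% at FT 72h. At FT 72h the median moved from -0.09 to -0.48, and Sall1 (-1.19) and Cebpa (-1.12) were called as lower. Of the genes called at HS 72h, 67.8% were higher on the deposited scale and 16.2% with 1 total per column, and at FT 72h 66.6% and 18.5%. Under quantile normalisation Sall1 and Cebpa were called as lower at HS 72h, at -1.28 and -1.08, and Sall1 at FT 72h, at -1.23, beside 11.4% and 10.6% of all genes. Bhlhe41 at FT 72h went from 0.58 to 0.10 under quantile normalisation (limma adjusted p = 0.799) and to 0.11 with 1 total per column (adjusted p = 0.691). Sall1 was lower than NI at 72 h under each of these scalings.

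**Figure D5:**
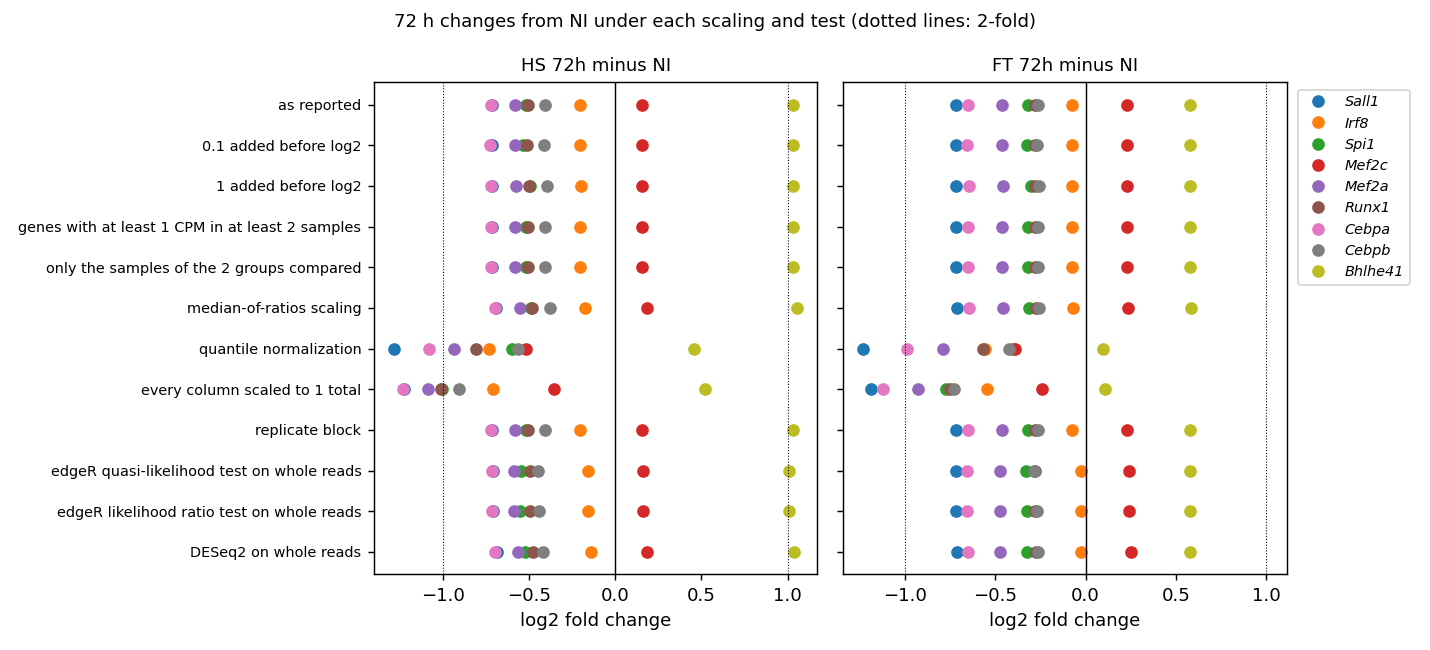
Log2 fold change of the 9 members at HS 72h and FT 72h (panels) under each scaling and test (rows), with dotted lines at 2-fold. Under quantile normalisation and 1 total per column all 9 members lie further to the left than as reported, with Sall1 between -1.28 and -1.19.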

How the data were processed

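The deposited table holds a normalised signal, scaled read counts in CPM. As the authors describe it, adapter reads were removed with the FASTX-Toolkit and reads were mapped with TopHat2 2.0.9 to mm10 (GRCm38). Reads were then counted with HTSeq 0.5.4p3 and scaled by library size in edgeR 3.3.6, keeping genes with enough counts in at least 2 replicates. The columns do not share a total, so the scale is not a plain division by the reads of each column. Division by the smallest step of each column gave whole reads for 336200 of 336200 values (100%, within 0.001 step). Reads were 3.87 to 34.1 M per sample. The members and lists were chosen with earlier results of these data known, and the GC and immediate-early scores after seeing the data.

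Values were tested as log2(CPM + 0.5) with limma 3.58.1 (trended prior, R 4.3.3) over 16810 genes and all 20 samples, with Benjamini-Hochberg adjustment. Fold changes are on this scale, which understates those of low genes. A call needed an adjusted p under 0.05 and a 2-fold change. Intervals are 95% intervals of the fit. The same steps were tested on simulated data. Named genes are the members, the largest rise and fall among called genes of a list (mean of at least 1 CPM in a group, at most 4 per list), paralogs set beside a member, and the 3 genes most like each member. edgeR 4.0.16 (quasi-likelihood) on the recovered reads called 2842 genes at HS 72h and 2217 at FT 72h, 1 of them a member at HS 72h. DESeq2 1.42.0, other pseudocounts, filters, scalings, a replicate block and leaving out each sample were the alternatives.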

Additional observations from a re-analysis of the deposited data

How the results depend on the processing

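At HS 72h against NI, 1 member was called, and the number was 2 after quantile normalisation, 5 with 1 total per column, 2 with no fold limit, and 0 to 1 when 1 sample was left out (without NI replicate 3 or HS 72h replicate 1 it was 0). Over all genes the share called was 13.4%, and 11.4%, 22.7% and 27.3% under the first 3. At FT 72h it was 1, 2 and 1 instead of 0 under the same 3 (12.2% of all genes, and 10.6%, 20% and 24.2%), and at HS 2w it was 1 with no fold limit (4.99% of all genes). The cause was not tested, other than the missing fold limit by its construction. No direction of a called value reversed. Of the 27 genes most like a member by Pearson's r, 10 were also among the first 3 by Spearman's rho and 2 by the 7 group means. With the replicate number as a block, 1 member was called at HS 72h (Bhlhe41, log2 fold change 1.03, limma adjusted p = 0.00218) and no call of a member changed, while the adjusted p of Sall1 at HS 2w was 0.0738. The numbers did not pair the samples: the median correlation of deviations was 0.00185 over 57 pairs with the same number and 0.00234 over 114 with different numbers, and 8 of 20 samples correlated best with their own number. The fewest reads were those of Sfpi1, at 38 to 248 per sample.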
